A study of Mus musculus with 119 samples.

Results

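Gene expression was compared between Elk1-/-Elk4-/- and wild-type (WT) mouse macrophages at 0.5 h of LPS stimulation. The comparison uses 10 of the 119 RNA-seq libraries of the series, 4 of Elk1-/-Elk4-/- cells (replicates 1 to 4) and 6 of WT cells (replicates 4 to 9), chosen by genotype and time alone. BMDMs, macrophages derived from bone marrow precursors in L cell conditioned medium, were starved overnight in 1% serum and given LPS, the bacterial ligand of the receptor TLR4, at 100 ng/ml. Also used here are the unstimulated libraries of both genotypes (4 and 6) and 6 libraries at 0.5 h from Map3k8[D270A] cells, whose allele encodes a catalytically inactive form of the kinase TPL-2. Later times are 1 h (6 WT and 4 deficient libraries) and 2 h (4 and 4), and the WT libraries at 2 h are replicates 4 to 7 only. Some values are set beside libraries of further experiments, 6 at 0.5 h from Nfkb1[SS/AA] cells, which carry serine changes in the TPL-2 partner NF-κB1 p105, and WT cells that had been given an inhibitor for 10 min before 0.5 h of LPS, PD0325901 against MKK1/2 at 0.1 µM (6 libraries) or RSKi47 against RSK at 2 µM (3 libraries). WT cells given DMSO, the solvent, for 10 min without LPS make up 3 libraries.

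All of these animals were on the C57BL/6 background, to which the mutants had been backcrossed. The deficient cells lack ELK1 and ELK4 in every cell of the animal, not in macrophages alone, and keep the related factor ELK3. WT and Map3k8[D270A] libraries carry the label of 1 experiment and Elk1-/-Elk4-/- libraries that of another, which holds no WT library, so that genotype and experiment cannot be told apart in any difference between the genotypes. The change from no LPS to 0.5 h is measured within each experiment. The methods call the libraries biological replicates, but neither they nor the labels say whether these were separate animals or cultures, and p values may therefore measure a technical spread. WT replicates 4 to 6 and 7 to 9 differed from each other (at 0.5 h 5 genes, 0.0421%, were at least 2-fold lower and 19, 0.16%, higher in the second set), and values against each set are given for a called difference that loses its call, turns or differs by over 1.5 times between them.

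ELK1, ELK3 and ELK4 are the ternary complex factors (TCFs), ETS-domain proteins that bind DNA next to serum response factor (SRF), whose own recognition sequence is the CArG box. ERK1/2 phosphorylates TCFs, which activates the immediate early genes, a class that is transcribed within minutes of a stimulus without new protein synthesis. In LPS-treated macrophages, TPL-2 is the kinase through which TLR4 activates MKK1/2 and ERK1/2. At 0.5 h the libraries therefore sample the first wave of transcripts, whereas differences that already exist in unstimulated cells bear on the resting state.

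The values are normalized levels on a log2 scale, and a difference is Elk1-/-Elk4-/- minus WT on that scale. The sources used here do not name the transformation, and if differences between libraries were natural logarithms, a 2-fold change would stand at 0.693 rather than 1. The depth of each library is unknown because the values are not counts. Adjusted p values come from limma (Benjamini-Hochberg, 11884 genes), and changed genes are those with a value below 0.05 that also moved by 1 unit or more, which is 2-fold. The root mean square difference over all tested genes was 0.137 to 0.184 between Elk1-/-Elk4-/- libraries at 0.5 h, 0.129 to 0.283 between WT libraries, and 0.278 to 0.394 between the genotypes, so that the last range begins below the highest value between WT libraries.

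Both targeted transcripts were reduced in all 4 Elk1-/-Elk4-/- libraries. Elk1 (chrX:20933395-20950608, GRCm38) was at 6.26, 6.22, 6.27 and 6.26 in the deficient libraries, and its lowest, median and highest WT levels were 9.21, 9.25 and 9.28, a difference of -3.00 (SE 0.05, adjusted p = 2.58e-46). Elk4 (chr1:132007577-132026448) was at 5.54, 5.69, 5.51 and 5.54, against 7.63, 7.73 and 7.83 in WT cells, a difference of -2.17 (SE 0.07, adjusted p = 7.25e-31). The groups were far apart for both genes, and the D270A libraries stood with WT. Elk3, the TCF that is not targeted, was at 10.40 in WT and 10.40 in deficient cells on average (difference 0.00, SE 0.03, adjusted p = 0.985), and its difference was -0.21 at 1 h and -0.34 at 2 h. Srf differed by -0.12 (SE 0.05, adjusted p = 0.0426) with overlapping libraries, and its call was lost against WT replicates 4 to 6 alone (-0.04, adjusted p = 0.592; -0.20 against 7 to 9) and on leaving out WT replicate 7, 8 or 9 or deficient replicate 2, 3 or 4 (-0.11 to -0.09). Of the cofactors of SRF that work without TCFs, Mkl2 was higher by 0.27 (adjusted p = 0.00246; against WT replicates 4 to 6 by 0.37, and against 7 to 9 by 0.18, adjusted p = 0.115) and Mkl1 differed by 0.07 (adjusted p = 0.461).

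The response to LPS itself differed between the genotypes at few genes. Subtracting the rise in WT cells from that in Elk1-/-Elk4-/- cells removes any difference that is the same with and without LPS. By this interaction, 3 genes had a rise at least 2-fold smaller in deficient cells (0.0252% of the genes tested), Egr1, Fosb and Fos, and 1 gene a rise at least 2-fold larger (0.00841%), Id3. At the adjusted p alone there were 5 smaller (0.0421%), with Ier2 and AI597479, and 2 larger (0.0168%), with Nuak2. An unadjusted p below 0.05 was found for 528 of the 11884 genes, fewer than chance alone would give. With the replicate number as a block, Egr1, Fos and Ier2 passed, and Fosb, Id3, Nuak2 and AI597479 did not (adjusted p = 0.114 to 0.138).

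Egr1 encodes a zinc finger transcription factor that is among the fastest genes to respond to growth factors. Its level at 0.5 h was 8.82, 8.96, 8.95 and 8.79 in Elk1-/-Elk4-/- cells and 13.02, 13.17 and 14.27 (lowest, median, highest) in WT cells, a difference of -4.45 (SE 0.15, adjusted p = 5.06e-31). Every deficient library lay more than 4 units below every WT library. Without LPS the levels were 6.96 to 7.17 in deficient and 7.70 to 8.33 in WT cells, a difference of -0.97 (adjusted p = 4.27e-07), and the rise with LPS was 5.34 in WT and 1.86 in deficient cells (interaction -3.48, SE 0.21, adjusted p = 3.22e-18). Egr1 thus still rose in the deficient cells (adjusted p = 1.93e-13). Against WT replicates 4 to 6 the difference was -4.16 and against 7 to 9 it was -4.73, and it was -4.04 at 1 h and -2.55 at 2 h.

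Of the 8 tested members of the EGR, NR4A and NAB list, which are zinc finger and orphan nuclear receptor factors of the immediate early class and the corepressors that bind EGR proteins, 6 were lower and 1 higher at the adjusted p, beside 22% lower and 22.4% higher of all genes tested. The median difference was -0.51, beside 0.00 over all genes. Egr3 (chr14:70077317-70082613) was at 8.32, 8.13, 8.24 and 8.36 in deficient cells and 8.95, 9.44 and 10.03 in WT cells, a difference of -1.19 (SE 0.15, adjusted p = 7.81e-09). The libraries did not overlap, and the difference was -0.78 against WT replicates 4 to 6 and -1.60 against 7 to 9. The rise of Egr3 was 2.46 in WT and 1.67 in deficient cells, and this interaction did not pass (adjusted p = 0.261), except against WT replicates 7 to 9 (-1.20, adjusted p = 0.00215).

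Egr2 was at 11.88, 11.85, 11.86 and 11.81 in deficient cells, below the lowest WT level of 11.98, with a difference of -0.61 (adjusted p = 0.00209) that was -0.97 against WT replicates 7 to 9 and did not pass against 4 to 6 (-0.25, adjusted p = 0.212). Nab2, a corepressor of EGR proteins, differed by -0.74 at 0.5 h (adjusted p = 7.46e-09) and by -0.57 without LPS. Its sister corepressor Nab1 went the other way, by 0.15 (adjusted p = 0.0053), but by 0.19 against WT replicates 4 to 6 and 0.10 against 7 to 9 (adjusted p = 0.112). Nr4a1 was at 10.55, 10.52, 10.19 and 10.51, within the WT range of 10.14 to 11.58. Its difference of -0.41 (adjusted p = 0.0246) changed sign against WT replicates 4 to 6 (0.06), was -0.88 against 7 to 9, and lost its call on leaving out WT replicate 7, 8 or 9 or deficient replicate 3 (-0.35 to -0.26). Within the list, Egr1 and Egr3 passed the 2-fold limit, where 0.446% of all genes tested were at least 2-fold lower. Against WT replicates 4 to 6 alone 3 members were lower, where the share of all genes was not counted. Between the WT sets, 4 of the 8 were higher and 0 lower in replicates 7 to 9 than in 4 to 6 (2.68% and 2.7% of all genes).

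**Figure D1:**
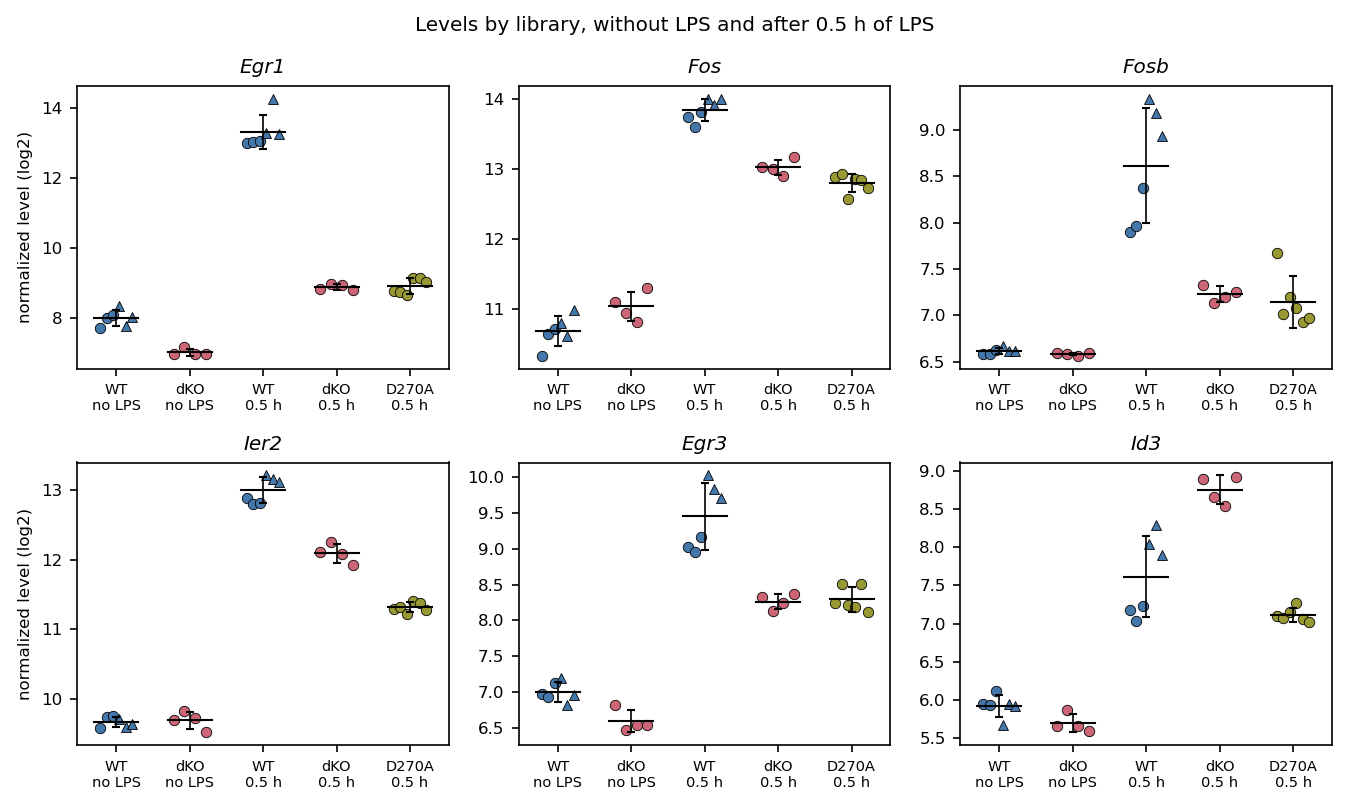
Normalized levels (log2, vertical axes) of 6 genes in each library of WT, Elk1-/-Elk4-/- (dKO) and Map3k8[D270A] cells without LPS or at 0.5 h; WT triangles are replicates 7 to 9, lines are means and bars are SDs. Egr1, Fos, Fosb, Ier2 and Egr3 lay lower at 0.5 h in all 4 dKO than in all 6 WT libraries, and Id3 lay higher (8.54 to 8.92, against 7.03 to 8.30).

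Genes of the AP-1 complex, the dimers of FOS, JUN and related proteins, were lower for part of the family. Of 14 tested members 7 were lower and 2 higher at the adjusted p, beside 22% and 22.4% of all genes, with a median of -0.28. Between the WT sets, 6 of the 14 were higher and 0 lower in replicates 7 to 9 than in 4 to 6, with a median of 0.24 (2.68% and 2.7% of all genes). Fos (chr12:85473890-85477274) was at 13.02, 13.00, 12.90 and 13.17 in deficient cells and 13.59, 13.86 and 13.99 in WT cells, a difference of -0.82 (SE 0.10, adjusted p = 1.13e-08). In unstimulated cells the sign was the opposite, 0.36 (adjusted p = 0.00375), with levels of 10.82 to 11.30 in deficient and 10.34 to 10.98 in WT cells. The rise with LPS was therefore 3.15 in WT and 1.98 in deficient cells (interaction -1.17, SE 0.15, adjusted p = 6.25e-07). The difference of Fos was -0.24 at 1 h and 0.20 at 2 h.

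Fosb (chr7:19302696-19310118) was at 7.33, 7.13, 7.20 and 7.26 in deficient cells and 7.89, 8.65 and 9.34 in WT cells, a difference of -1.39 (SE 0.16, adjusted p = 7.05e-10). Its levels without LPS lay between 6.56 and 6.67 in both genotypes (difference -0.04, adjusted p = 0.866). The size depended on the WT libraries: WT replicates 4 to 6 reached 7.89 to 8.37 and replicates 7 to 9 reached 8.94 to 9.34, and the difference was -0.85 against the first set and -1.92 against the second. At 1 h it was -1.52 and at 2 h -0.15.

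The JUN genes differed by less than Fos and Fosb. Jund differed by -0.49 (adjusted p = 1.79e-07) and by -0.52 without LPS, with every deficient library below every WT library. Junb differed by -0.33 (adjusted p = 0.00136), but by -0.08 against WT replicates 4 to 6 (adjusted p = 0.423) and by -0.58 against 7 to 9. Jun differed by -0.15 (adjusted p = 0.198). Mafg, a small MAF protein that pairs with AP-1 and CNC factors, was at 9.21, 9.13, 9.24 and 9.20 against 9.51 to 9.64 in WT cells (difference -0.38, adjusted p = 2.06e-07). Fosl1 was at low levels (3.11 to 3.98 in WT cells, difference -0.40, adjusted p = 0.0487), and this call was lost against WT replicates 4 to 6 (-0.08, adjusted p = 0.754), where against 7 to 9 the difference was -0.72 (adjusted p = 0.00223), and on leaving out WT replicate 7, 8 or 9 or any deficient replicate (-0.43 to -0.30). Fosl2 differed in the other direction, by 0.39 (adjusted p = 0.00832), by 0.69 against WT replicates 4 to 6 and by 0.10 against 7 to 9 (adjusted p = 0.582).

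Other immediate early genes were called in both directions. Of 33 tested, 1 of which (Ctgf, higher) passed the filter on low values only through deficient libraries, 9 were lower and 10 higher at the adjusted p (22% and 22.4% of all genes), none by 2-fold, with a median of 0.07. Between the WT sets, 16 of the 33 were higher and 2 lower in replicates 7 to 9 than in 4 to 6, with a median of 0.31. The counts of 9 and 10 were not repeated against each set. Ier2 (chr8:84661331-84662852), a nuclear protein gene of this class, was at 12.11, 12.25, 12.09 and 11.93 in deficient cells and 12.81, 13.00 and 13.22 in WT cells, a difference of -0.91 (SE 0.08, adjusted p = 8.08e-13). Without LPS it did not pass (0.02, adjusted p = 0.835), and its rise was 3.33 in WT and 2.40 in deficient cells (interaction -0.93, adjusted p = 6.25e-07). Ier5l was lower with and without LPS (-0.84 and -0.92), and its difference at 0.5 h was -1.02 against WT replicates 4 to 6 and -0.66 against 7 to 9. Klf6, a Krüppel-like factor, was higher by 0.45 (adjusted p = 1.15e-07), at 15.03, 14.99, 15.11 and 15.09 against 14.30 to 14.86 in WT cells. Its difference was 0.68 against WT replicates 4 to 6 and 0.22 against 7 to 9, and these sets differed from each other (0.47, adjusted p = 5.52e-10). Ier3, another gene of the class, differed by 0.10 (adjusted p = 0.525).

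Id3 (chr4:136143822-136145392), which encodes an inhibitor of basic helix-loop-helix factors, had the largest of the called gains in response. It was at 8.89, 8.66, 8.54 and 8.92 in deficient cells and 7.03, 7.56 and 8.30 in WT cells, a difference of 1.14 (SE 0.15, adjusted p = 3.78e-08). All 4 deficient libraries exceeded the WT libraries, whose replicates 7 to 9 stood above replicates 4 to 6 by 0.94, and the difference was 1.61 against replicates 4 to 6 and 0.67 against 7 to 9. Without LPS Id3 differed by -0.23 (adjusted p = 0.213), and its rise was 1.69 in WT and 3.06 in deficient cells (interaction 1.37, adjusted p = 0.000192). Against WT replicates 7 to 9 alone the interaction was 0.83 and did not pass (adjusted p = 0.167). Nuak2, an AMPK-related kinase gene, had a rise of 0.72 in WT and 1.24 in deficient cells (interaction 0.53), and the interaction was 0.75 against WT replicates 4 to 6 (adjusted p = 3.42e-09) and 0.30 against 7 to 9 (adjusted p = 0.342). Nuak2 (chr1:132316125-132333488) lies 0.308 Mb from the targeted gene Elk4, measured between midpoints. AI597479 differed in its response by -0.22 (adjusted p = 0.038), a call that was lost against either set of WT libraries alone (-0.19 and -0.26) and on leaving out WT replicate 4, 7 or 8 or deficient replicate 1, 2 or 4 (-0.24 to -0.19).

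The promoters of Srf, Dusp5 and Fos are shown because they hold, in turn, the CArG box together with the ETS letters, the CArG box alone, and neither. Each is the 250 bases before the annotated start (RefSeq, GRCm38.p6), 5′ to 3′ on the gene's strand, with matches in capitals; searched on both strands were the CArG box and CCGGAA, the core that ETS-domain proteins bind. Srf is from chr17:46556163-46556412 (minus strand), Dusp5 from chr19:53528895-53529144 (plus) and Fos from chr12:85473640-85473889 (plus).
Srf: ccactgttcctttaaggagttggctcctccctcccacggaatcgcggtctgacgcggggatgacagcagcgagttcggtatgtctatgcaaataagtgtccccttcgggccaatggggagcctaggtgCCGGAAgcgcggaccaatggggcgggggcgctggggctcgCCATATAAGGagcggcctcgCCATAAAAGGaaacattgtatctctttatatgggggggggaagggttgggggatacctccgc
Dusp5: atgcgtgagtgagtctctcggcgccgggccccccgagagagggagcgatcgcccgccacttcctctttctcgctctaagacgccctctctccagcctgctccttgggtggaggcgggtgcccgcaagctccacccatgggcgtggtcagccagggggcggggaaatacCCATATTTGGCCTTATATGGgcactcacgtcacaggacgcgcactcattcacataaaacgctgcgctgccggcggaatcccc
Fos: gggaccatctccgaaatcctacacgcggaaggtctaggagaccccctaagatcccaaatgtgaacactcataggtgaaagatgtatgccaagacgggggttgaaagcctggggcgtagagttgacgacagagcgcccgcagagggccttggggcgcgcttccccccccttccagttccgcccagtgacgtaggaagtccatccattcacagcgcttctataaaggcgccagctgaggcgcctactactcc

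In Srf, CCGGAA begins 122 bases and the CArG boxes begin 82 and 62 bases before the start, and in Dusp5, a dual specificity phosphatase gene, CArG boxes begin 82 and 72 bases before it. The Fos window holds neither set of letters, which says nothing about sequence farther away. A CArG box was present in 1.63% and CCGGAA in 14.9% of the 32851 promoters in the table, each 250 bases before to 50 after the start. Of the tested genes, 9526 had a promoter there, and 1.48% of them held a CArG box. Among the genes lowered at least 2-fold, 0 of 31 with a promoter held one, and among those raised at least 2-fold 0 of 62. The table has no entry for the other 22 lowered genes, Egr1 and Egr3 among them, or the other 24 raised genes, so these were not searched. Of the 70 genes with a promoter among those that LPS raised at least 2-fold in either genotype, 3 held a CArG box, Dusp5, Egr2 and Zfp36, and these differed between the genotypes at 0.5 h by 0.12, -0.61 and 0.03. CCGGAA was held by 32.6% of the tested genes with a promoter, by 6 of the 31 lowered (19.4%), 9 of the 62 raised (14.5%) and 13 of the 70 LPS-raised genes (18.6%), where a gene with several promoters counts if any holds it. A CArG box was held by 5 of 23 cytoskeletal targets of SRF with a promoter (21.7%), Actg1, Cnn2, Vcl, Filip1l and Lima1. CCGGAA was held by 2 of these 23 (8.70%). A match is a run of letters and not a bound site.

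Most transcripts of the first wave after LPS rose in both genotypes. LPS raised 74 genes at least 2-fold in WT cells (0.623% of genes tested) and 90 in Elk1-/-Elk4-/- cells (0.757%), and 67 were in both lists, 90.5% of the first and 74.4% of the second. Of the 67 genes in both lists, 49 had the larger fitted rise in deficient cells, with medians of 1.87 in WT and 2.17 in deficient cells. At 0.5 h, 24 of these 67 were higher and 13 lower in deficient than in WT cells at the adjusted p, beside 22.4% and 22% of all genes, and the median difference was 0.19, whereas without LPS it was -0.02. A further 23 genes passed the 2-fold limit in deficient cells alone, and all 23 have the larger rise there because of how they were chosen. The 7 genes on the WT list alone included Fosb, and 6 of the 7 also rose in deficient cells at the adjusted p alone, by which 3.22% of all genes rose in deficient and 7.82% in WT cells, the exception being H2-Q5 (0.62, adjusted p = 0.0536). No gene was lowered 2-fold by LPS at 0.5 h in either genotype.

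**Figure D2:**
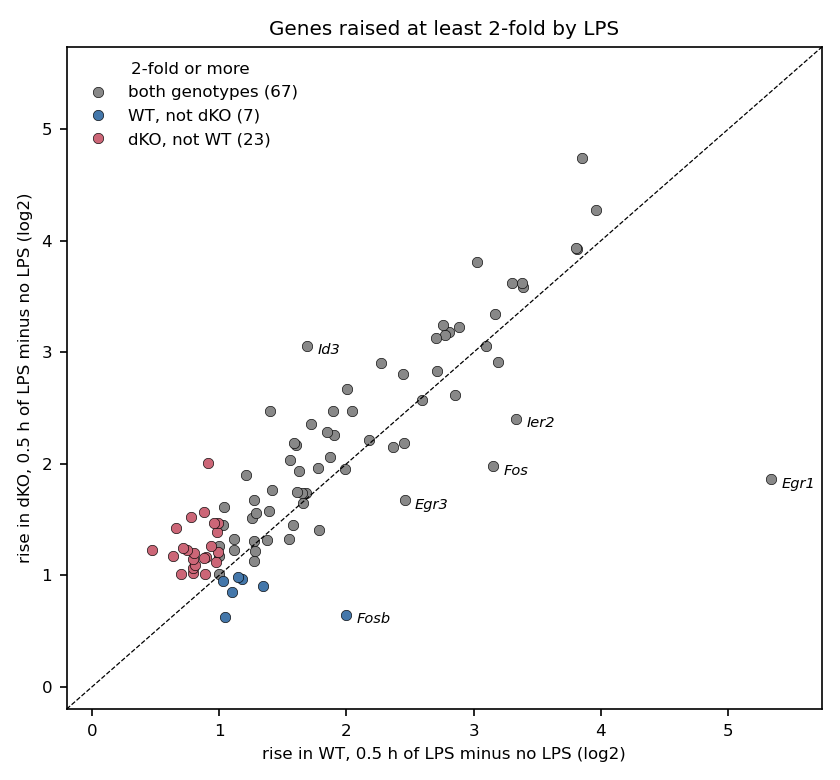
Rise from no LPS to 0.5 h of LPS (log2) in WT (horizontal axis) and Elk1-/-Elk4-/- (dKO, vertical axis) cells for the 97 genes raised at least 2-fold in either; each point is a gene, colours give the list it is on, and the dashed line marks equal rises. Egr1, Fos, Ier2, Egr3 and Fosb lie below the line, and 72 genes, Id3 among them, lie above it, 23 of which are on the plot through dKO cells alone.

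These responses depended on the set of WT libraries. Against WT replicates 4 to 6, 2 genes had a smaller rise in deficient cells by at least 2-fold, Egr1 and Fos, and 16 a larger one, among them Id3 (1.91), Csf2 (1.75), Il1b (1.48), Il1a (1.48), Cd83 (1.28) and Cxcl1 (1.26). Against WT replicates 7 to 9, 5 had a smaller rise, Egr1 (-3.71), Fosb (-1.87), Egr3 (-1.20), Fos (-1.18) and Ier2 (-1.12), and 0 a larger one. Egr1 and Fos passed the 2-fold limit with either set, and Fosb (-0.83, adjusted p = 0.011) and Ier2 (-0.75, adjusted p = 0.000301) passed at the adjusted p against replicates 4 to 6 as well.

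Cytokine and chemokine genes were higher in deficient cells for about as many members as not. Of 26 tested, 14 were higher and 1 lower at the adjusted p, beside 22.4% and 22% of all genes, with a median of 0.43. Against WT replicates 7 to 9 alone 7 were higher, where the share of all genes was not counted. Between the WT libraries themselves, 14 of the 26 were higher in replicates 7 to 9 than in 4 to 6 (2.68% of all genes were higher and 2.7% lower). Csf2, which encodes the growth factor GM-CSF, was at 5.54, 5.72, 5.64 and 5.22 in deficient cells and 3.49, 4.09 and 5.16 in WT cells, a difference of 1.31 (SE 0.22, adjusted p = 4.19e-06). It was the list's only member past 2-fold, where 0.724% of all genes tested were at least 2-fold higher, and its difference was 1.93 against WT replicates 4 to 6 and 0.70 against 7 to 9. At 1 h it was -1.14 and at 2 h -1.96.

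Cxcl1 (chr5:90891245-90893121), which encodes a neutrophil chemoattractant, was at 13.05, 13.05, 13.07 and 13.03 in deficient cells and 11.63, 12.05 and 12.49 in WT cells, a difference of 0.99 (adjusted p = 2.9e-07), with 1.31 against WT replicates 4 to 6 and 0.67 against 7 to 9. It did not pass without LPS (0.10, adjusted p = 0.59) and the deficient libraries stood above all 27 other libraries at 0.5 h. Il1b was at 12.90, 12.70, 12.59 and 12.87 against 11.11, 11.89 and 12.76, a difference of 0.86 (adjusted p = 0.00012) that was 1.53 against WT replicates 4 to 6 and did not pass against 7 to 9 (0.18, adjusted p = 0.281). Ccl4 was higher by 0.60 (adjusted p = 7.11e-07; 0.86 against WT replicates 4 to 6 and 0.35 against 7 to 9) and by 0.34 without LPS. Tnf differed by 0.18 (adjusted p = 0.16), but by 0.58 against WT replicates 4 to 6 (adjusted p = 1.53e-08) and by -0.21 against 7 to 9 (adjusted p = 0.0256), and it passed on leaving out WT replicate 7 (0.26) or 9 (0.29). Il6 differed by 0.30 (adjusted p = 0.28). Vegfa, the member that was lower, differed by -0.94 at 0.5 h and -0.98 without LPS.

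Il10, the gene of an anti-inflammatory cytokine, was at 9.97, 9.94, 9.97 and 9.99 in deficient cells and 8.82, 8.90 and 9.49 in WT cells, a difference of 0.91 (SE 0.14, adjusted p = 6.26e-07), with 1.14 against WT replicates 4 to 6 and 0.67 against 7 to 9. It was also higher by 0.78 without LPS (adjusted p = 5.88e-06), and the difference was 0.01 at 1 h and -0.45 at 2 h. Il10 lies at chr1:131019845-131024970, within 5 Mb of the targeted gene Elk4. Ifnb1, which encodes interferon-β, was at 5.49, 5.11, 5.33 and 5.52 against 4.48, 4.72 and 5.12, a difference of 0.61 (adjusted p = 0.000461) that was 1.73 at 1 h. Its libraries overlapped at 0.5 h, and its call was lost under 1 of 21 alternatives (adjusted p = 0.0617, limma). Without LPS its difference was 0.22 (adjusted p = 0.206).

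Genes of the NF-κB family and its feedback inhibitors, which TLR4 induces through a separate arm of the pathway, were higher for 8 and lower for 2 of 20, beside 22.4% and 22% of all genes, with a median of 0.04 and differences from -0.28 to 0.41. Tnfaip3, encoding the ubiquitin-editing inhibitor A20, differed by 0.41 (adjusted p = 0.0104), a call that was lost on leaving out WT replicate 4 (0.30) or 5 (0.29). Against WT replicates 4 to 6 it differed by 0.92 and against 7 to 9 by -0.11 (adjusted p = 0.325), and the sets differed from each other by 1.03 (adjusted p = 6.52e-13). In all, 11 of the 20 differed between WT replicates 7 to 9 and 4 to 6, all higher in the former, where 2.68% of all genes were higher and 2.7% lower. Of 15 genes for feedback inhibitors of ERK signalling, the dual specificity phosphatases, Sprouty and Spred proteins, 8 were higher and 1 lower, again beside 22.4% and 22% of all genes, with a median of 0.23, and 5 of the 15 were higher and 0 lower in WT replicates 7 to 9 than in 4 to 6 (2.68% and 2.7%). Dusp8 was at 8.86, 8.84, 8.92 and 8.83 against 7.78 to 8.64 in WT cells (difference 0.69, adjusted p = 1.42e-06), with 1.02 against WT replicates 4 to 6 and 0.37 against 7 to 9. Dusp16 was higher by 0.44 and without LPS by 0.47. Dusp6 was the member that was lower, with a difference of -0.28 (adjusted p = 0.0155) that lost its call against WT replicates 4 to 6 (-0.24, adjusted p = 0.0869; -0.32 against 7 to 9) and without deficient replicate 4 (-0.25).

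The phosphatase genes that LPS raised most had no stable direction. Dusp1 differed by 0.23 (adjusted p = 0.0473), by 0.51 against WT replicates 4 to 6 and by -0.06 against 7 to 9, and its call was lost on leaving out WT replicate 4, 5 or 6 or any deficient replicate (0.16 to 0.24). Dusp2 differed by 0.15 (adjusted p = 0.434), with 0.67 and -0.38 against the sets in that order. Dusp5 differed by 0.12 (adjusted p = 0.634), with 0.77 and -0.52. The kinases upstream changed little: of 14 genes for TPL-2, MKK, ERK and RSK components 4 were lower and 1 higher, beside 22% and 22.4% of all genes. Differences in this list lay between -0.26 and 0.15, and Map3k8 differed by -0.01 (adjusted p = 0.924). Of 21 genes of the LPS receptor and its adaptors 4 were lower and 6 higher, close to the 22% and 22.4% of all genes, with Tlr4 higher by 0.40. Of 25 cytoskeletal targets of SRF, which its MKL cofactors control, 4 were lower and 7 higher, with a median of 0.03 beside 0.00 over all genes. Lima1 was higher by 0.35 and Actg1 by 0.18 (0.25 against WT replicates 4 to 6 and 0.10 against 7 to 9), the latter not under quantile normalization (0.15, adjusted p = 0.068).

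Levels in Map3k8[D270A] cells are given side by side, since both mutants are compared with the same WT libraries. Egr1 was at 8.66 to 9.15 in D270A cells, a difference from WT of -4.41, and Elk1-/-Elk4-/- and D270A cells, compared directly without WT, differed by -0.04 (adjusted p = 0.862). Fosb and Egr3 differed between the mutants by 0.08 (adjusted p = 0.685) and -0.03 (adjusted p = 0.884), and Fos by 0.22 (adjusted p = 0.0786). Ier2 was lower in D270A (-1.68 from WT) than in deficient cells (-0.91 from WT), by 0.78 (adjusted p = 7.7e-11). The same held for Nr4a1, at -1.28 in D270A and -0.41 in deficient cells (direct difference 0.87, adjusted p = 4.76e-06). Nab2 went the other way, at 0.04 in D270A and -0.74 in deficient cells (direct difference -0.78, adjusted p = 1.58e-09).

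Most LPS-induced genes parted in this comparison. Of the 67 genes raised at least 2-fold by LPS in both WT and Elk1-/-Elk4-/- cells, 32 were lower and 0 higher in D270A than in WT cells (0.892% and 0.48% of all genes), and compared directly, 51 were higher and 3 lower in Elk1-/-Elk4-/- than in D270A cells. Of all genes tested, 25.8% were higher and 23.6% lower in that direct comparison, in which the experiment labels differ too. The 67 genes were chosen by their rise in WT and Elk1-/-Elk4-/- libraries, without a condition on D270A cells. This choice by itself favours lower values in D270A cells, and the size of its part was not tested. Ier3, for example, differed from WT by -0.81 in D270A cells (adjusted p = 2.17e-07) and by 0.10 in deficient cells, and the mutants differed directly by 0.90 (adjusted p = 1.31e-08).

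Over the whole transcriptome, 53 genes were lower (0.446%) and 86 higher (0.724%) in Elk1-/-Elk4-/- cells at 0.5 h, and most of them differed as much before LPS. Of the 53 lower genes, 43 were also at least 2-fold lower without LPS (0.463% of all genes), and of the 86 higher genes 78 were at least 2-fold higher (0.774%). These comparisons share no library. The median difference of the lower genes was -1.31 with and -1.26 without LPS, and that of the higher genes 1.30 and 1.35. At all 4 times, 28 and 61 of them were changed the same way, with the 2 h values resting on 4 WT libraries, 3 of them from replicates 4 to 6, where the shares of all genes lower and higher were 0.665% and 0.867% at 1 h and 0.959% and 1.13% at 2 h. The libraries of the genotypes did not overlap for 52 and 83 of them, where 14.8% of all tested genes lay below and 14.6% above WT in this way. The genes were chosen by their difference in the same libraries, so that this count is no separate evidence. At the adjusted p alone, 2610 genes were lower and 2664 higher. Of the 86 higher genes 7 had passed the filter only through deficient libraries, and of the 53 lower genes 1 only through the others. Tmem254c, singled out after its values were seen, averaged 4.95 (SD 1.33) over the WT and 2.95 (SD 0.07) over the deficient libraries at 0.5 h, a difference of -2.0 beside -0.29 without LPS, but its level varied widely and its interaction did not pass (-1.71, adjusted p = 1.00, limma).

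**Figure D3:**
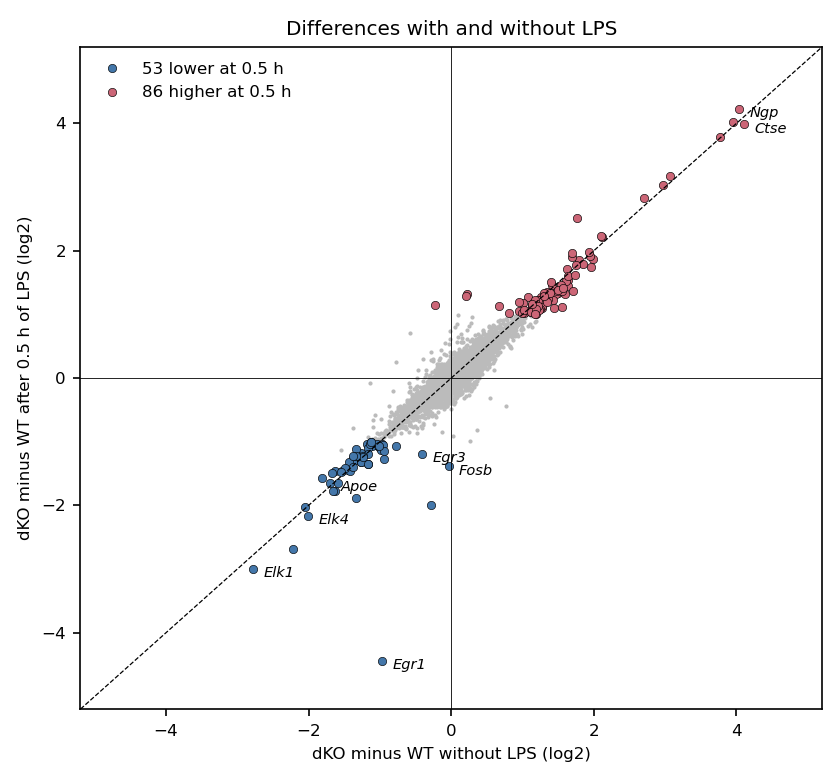
Difference of Elk1-/-Elk4-/- (dKO) minus WT without LPS (horizontal axis) and at 0.5 h (vertical axis), both log2; each of the 11884 tested genes is a point, coloured where it was changed at 0.5 h, and the dashed line marks equal differences. Most coloured points lie near the line, while Egr1 (-0.97 and -4.45), Egr3 and Fosb lie below it, as does Tmem254c (-0.29 and -2.0, not named in the plot).

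The count depended in part on the control libraries. Against WT replicates 4 to 6 there were 64 lower and 127 higher genes, and against 7 to 9 there were 50 and 81. Of the 53 and 86 genes, 33 and 61 passed the 2-fold limit against both sets. For 32 and 61 of them, the 4 deficient libraries lay outside all 27 other libraries at 0.5 h, which include inhibitor-treated and mutant cells of further experiments (4.43% and 4.84% of all genes tested did so). Against D270A cells directly, 38 and 75 were changed the same way, beside 0.48% lower and 0.959% higher of all genes. Counts against the 27 libraries and against D270A cells use the same deficient libraries by which the genes were chosen. As a measure of differences between experiments within 1 genotype, DMSO-treated WT cells differed from untreated WT cells without LPS by at least 2-fold at 12 lower (0.1%) and 34 higher (0.284%) genes, with the solvent and the experiment changed together.

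Setting aside the targeted genes, Egr1 and the uncertain genes named below, losses at 0.5 h were largest for Lrrc32, Apoe, Mmp14, Prex2, Ppp1r1a and Plxdc2. This ranking covers genes whose libraries did not overlap and whose mean was at least 5 in the higher group. The 6 losses were present without LPS too. Apoe (chr7:19696244-19701310), the apolipoprotein through which macrophages pass on cholesterol, was at 14.51, 14.73, 14.65 and 14.47 in deficient cells and 15.93, 16.25 and 16.57 in WT cells, a difference of -1.65 (SE 0.14, adjusted p = 1.89e-13), with -1.70 without LPS. Lrrc32, which encodes a docking receptor for latent TGF-β, differed by -1.77 at 0.5 h (adjusted p = 4.15e-09) and -2.72 at 2 h. Mmp14, a membrane-anchored metalloprotease, differed by -1.64 (adjusted p = 3.36e-06), and by -2.04 and -1.25 against WT replicates 4 to 6 and 7 to 9. Prex2 was at 3.29 to 3.40 in deficient libraries and at 3.11 to 3.46 in D270A cells, but at 4.92 to 5.25 in WT cells. A further 4 genes with large differences are uncertain, as reads can be shared with near-identical copies or the libraries vary widely: Amd2 (WT 6.01 to 9.87; difference -2.68, which was -3.14 against WT replicates 4 to 6 and did not pass against 7 to 9 at -2.23, adjusted p = 0.0543), Rps15a-ps6 (-2.03), BC002163 (-1.88) and, among the gains, G530011O06Rik (1.90).

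**Figure D4:**
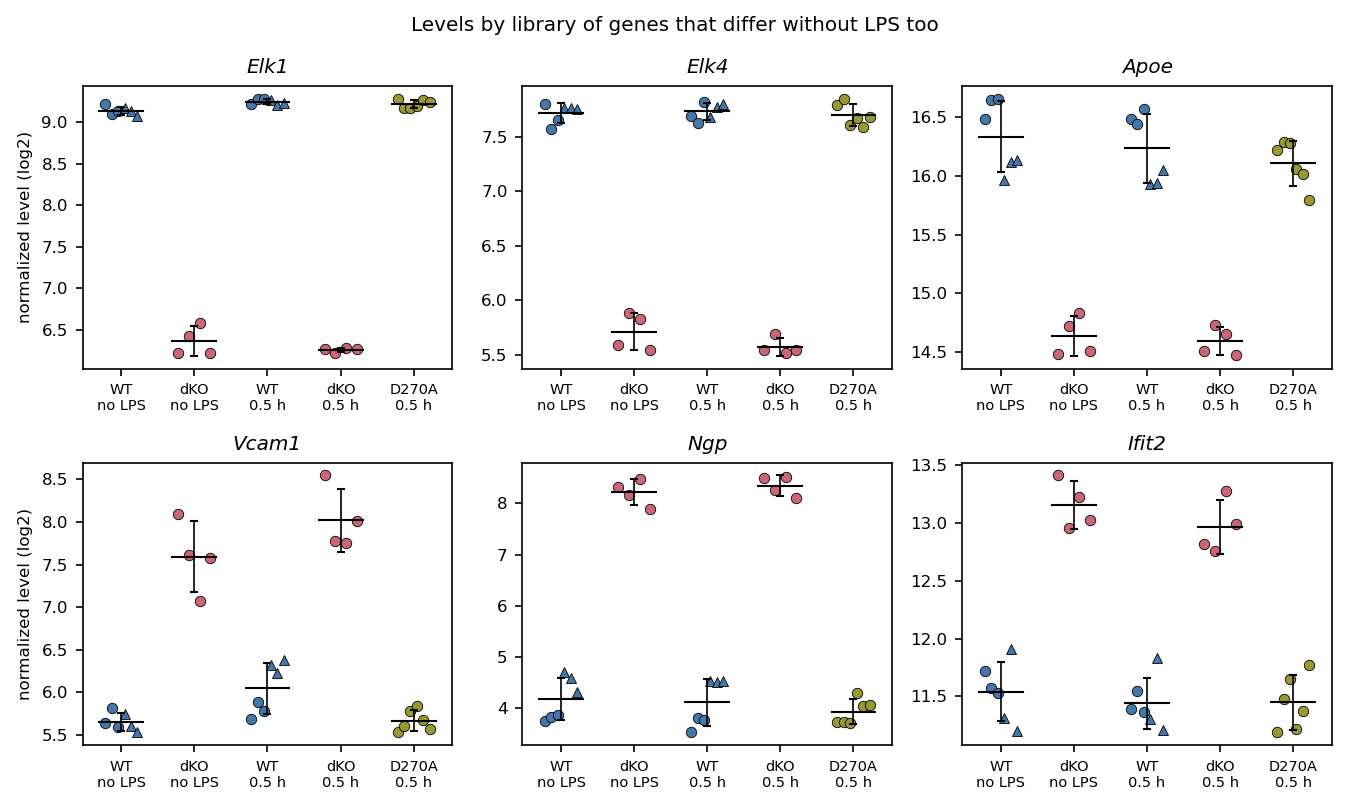
Normalized levels (log2, vertical axes) of 6 genes in each library of WT, Elk1-/-Elk4-/- (dKO) and Map3k8[D270A] cells; WT triangles are replicates 7 to 9, lines are means and bars are SDs. Elk1, Elk4 and Apoe lie lower, and Vcam1, Ngp and Ifit2 higher, in dKO libraries both without LPS and at 0.5 h.

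Among the gains, Vcam1, an adhesion molecule gene, was at 8.55, 7.78, 7.75 and 8.01 in deficient cells against 5.69, 6.06 and 6.38 in WT cells, a difference of 1.98 (adjusted p = 8.87e-16) that was 0.25 at 2 h. Adamts1, a secreted metalloprotease gene, was at 6.88, 7.25, 7.23 and 7.23 against 4.19, 4.54 and 5.17, a difference of 2.51 (adjusted p = 7.77e-13), beside 1.76 without LPS. Cpne8 and Plac8 differed by 1.92 and 2.23. Chil3, encoding the chitinase-like protein Ym1, was at 8.31, 8.18, 8.13 and 7.91 against 4.50, 4.77 and 5.72, a difference of 3.17 (adjusted p = 7.95e-21).

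Ctse (chr1:131638314-131675507), which encodes the aspartic protease cathepsin E, was at 9.60, 9.73, 9.85 and 9.43 in deficient cells and 5.34, 5.68 and 5.97 in WT cells, a difference of 3.99 (SE 0.12, adjusted p = 1.77e-32). It differed by 4.11 without LPS and by 4.09 and 4.08 at 1 and 2 h. Ctse lies 0.360 Mb from Elk4. Of 68 tested genes within 5 Mb of Elk4, 3 were changed 2-fold (4.41%, beside 1.17% of all genes tested), Ctse, Chil1 (1.18, which passed the filter only through deficient libraries) and Mfsd4a (-1.09), whose interval overlaps that of Elk4. Of 20 tested genes as near to Elk1, 0 were changed 2-fold. Whether sequence carried with the alleles plays a part was not tested.

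Interferon-stimulated genes were higher in the deficient cells with and without LPS. Of 36 tested members of this list, 34 were higher and 0 lower at 0.5 h (22.4% and 22% of all genes), 10 of them by 2-fold, with a median of 0.80, and without LPS 31 were higher and 0 lower, where 27.2% of all genes were higher and 24.6% lower. Irf7, the factor that amplifies type I interferon production, was at 12.63, 12.90, 13.07 and 12.43 in deficient cells and 10.98, 11.28 and 11.80 in WT cells, a difference of 1.47 (SE 0.18, adjusted p = 7e-09), and of 1.54 without LPS. Ifit2, which encodes an antiviral protein that binds RNA, was at 12.82, 12.76, 13.28 and 13.00 against 11.21, 11.37 and 11.83, a difference of 1.53 (adjusted p = 5.21e-09). For both genes all 4 deficient libraries exceeded the WT libraries. Isg15, Rtp4, Bst2 and Irf9 were higher by 1.05, 0.80, 0.56 and 0.38, and of the 36 genes Cxcl9 (0.25, adjusted p = 0.598) and Oas2 (0.30, adjusted p = 0.398) did not pass. The change of Irf7 with LPS was -0.10 in WT and -0.17 in deficient cells and passed in neither.

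The promoters of Ifit3 and Isg15 are shown as members that hold the interferon-stimulated response element, searched on both strands as GAAA, any 2 bases and GAAA again, with overlapping matches counted (capitals). They are the 250 bases before the start in RefSeq (GRCm38.p6), of Ifit3 from chr19:34583279-34583528 (plus strand) and of Isg15 from chr4:156200819-156201068 (minus strand).
Ifit3: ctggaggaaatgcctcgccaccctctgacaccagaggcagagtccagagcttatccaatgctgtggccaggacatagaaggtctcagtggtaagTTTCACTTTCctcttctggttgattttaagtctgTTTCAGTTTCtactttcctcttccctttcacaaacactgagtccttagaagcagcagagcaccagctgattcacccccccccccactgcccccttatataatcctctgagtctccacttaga
Isg15: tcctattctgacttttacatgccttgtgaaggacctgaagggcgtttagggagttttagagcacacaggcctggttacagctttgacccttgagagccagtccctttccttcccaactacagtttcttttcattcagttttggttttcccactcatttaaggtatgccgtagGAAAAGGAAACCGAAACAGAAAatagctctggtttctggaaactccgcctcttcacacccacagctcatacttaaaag

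The matches begin 156 and 122 bases before the start of Ifit3, where they are read on the opposite strand, and 78, 72 and 66 bases before that of Isg15. Of 28 members of the interferon list with a promoter in the table, 16 held these letters (57.1%), beside 3.93% of the tested genes with a promoter and 3.44% of all promoters. Of 62 genes raised at least 2-fold at 0.5 h with a promoter, 10 held them (16.1%), and of 31 lowered genes 2 did (6.45%). The interferon motif was chosen after the data were seen.

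Genes of this list also differed between WT libraries of different experiments. The mean level of the 36 members was 10.51 to 10.78 in the deficient libraries at 0.5 h and 9.62 to 10.02 in WT libraries, without overlap. It was 9.63 to 9.87 in D270A, 9.80 to 10.97 in Nfkb1 SSAA, 10.03 to 10.54 in PD0325901-treated and 10.46 to 10.69 in RSKi47-treated cells. In DMSO-treated WT cells without LPS it was 10.49 to 10.55, and against untreated WT cells 28 of the 36 were higher and 0 lower (12.5% and 11.1% of all genes), with a median difference of 0.76. The part of the experiment in the difference between the genotypes was not tested apart from these values.

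**Figure D5:**
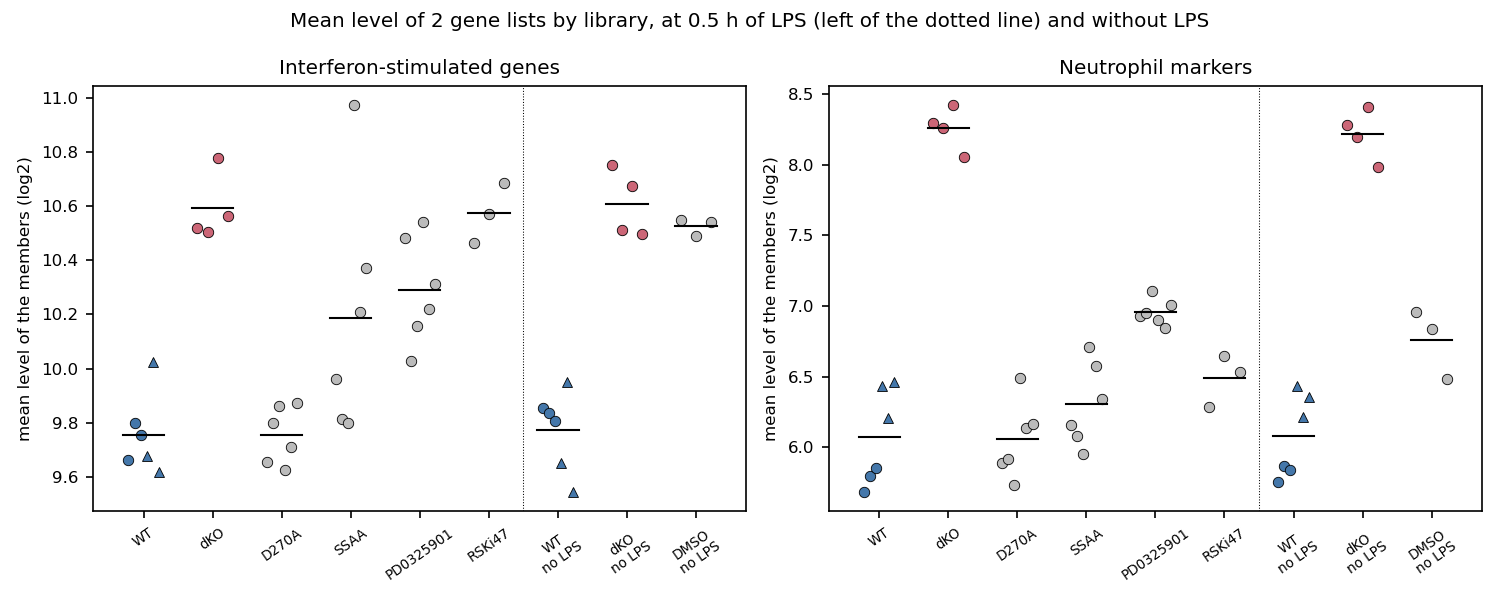
Mean level (log2, vertical axes) of the 36 tested interferon-stimulated genes and of 8 neutrophil markers in each library, at 0.5 h of LPS and without LPS, for WT (triangles are replicates 7 to 9), Elk1-/-Elk4-/- (dKO), Map3k8[D270A], Nfkb1 SSAA and inhibitor- or DMSO-treated WT cells; lines are means. The interferon list in dKO libraries (10.51 to 10.78 at 0.5 h) overlaps that of other experiments, whereas the neutrophil list (8.05 to 8.42) lies above all other genotypes and treatments drawn; the 3 markers that passed the filter only through dKO libraries are left out.

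Markers of macrophages were present in all libraries, with part of them lower in deficient cells. Of 15 tested identity markers 9 were lower and 2 higher at the adjusted p, beside 22% and 22.4% of all genes, with a median of -0.40. In DMSO-treated against untreated WT cells without LPS 6 of the 15 were lower and 2 higher, with a median of -0.03 (11.1% of all genes were lower and 12.5% higher). Their summed level was 18.65 to 18.69 in deficient and 18.88 to 19.03 in WT libraries. C1qa, which encodes a chain of the complement component C1q, was at 12.46, 12.71, 12.56 and 12.29 against 13.32, 13.51 and 13.70 in WT cells, a difference of -1.01 (adjusted p = 2.49e-11). C1qb, C1qc and Lyz2 differed by -0.49, -0.60 and -0.45, the last by -0.21 under quantile normalization and by -0.54 and -0.36 against WT replicates 4 to 6 and 7 to 9. Csf1r (-0.08, adjusted p = 0.25), Cd68, Cd14 and Itgam did not pass, while Adgre1 and Fcgr1 were higher by 0.15 and 0.50, the former by 0.16 against WT replicates 4 to 6 but not against 7 to 9 (0.15, adjusted p = 0.0568) and the latter by 0.61 against WT replicates 4 to 6 and 0.40 against 7 to 9. In bulk samples such as these, fewer cells of a type and less RNA per cell cannot be told apart.

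Part of the neutrophil markers, among them granule protein genes, were higher in deficient cells with and without LPS. Of the 15 markers of this list in the file 11 were tested, and 3 of these, Camp, Cxcr2 and Retnlg, reached the filter on low values only in deficient libraries, so that they had to differ. Of the other 8, 5 were higher, each by at least 2-fold, and 0 lower, where 22.4% and 22% of all genes were higher and lower at the adjusted p. Ngp (chr9:110419808-110423012), encoding a granule protein, was at 8.50, 8.25, 8.52 and 8.10 in deficient cells and 3.53, 4.17 and 4.54 in WT cells, a difference of 4.23 (SE 0.26, adjusted p = 1.59e-19), beside 4.04 without LPS. Ltf, S100a9, S100a8 and Lcn2 differed by 4.03, 3.79, 3.04 and 2.82, and Camp by 2.21. The receptor gene Csf3r (-0.21, adjusted p = 0.0503) and the protease genes Mmp8 (0.20) and Mmp9 (-0.42) did not pass. Elane, Mpo, Prtn3 and Ly6g, the other markers of the list, were below the filter. The summed level of the list, to which Csf3r contributes most, was 11.61 to 11.94 in deficient and 11.07 to 11.38 in WT libraries. Of the 15 genes, 5 had a mean linear level below 10 in deficient cells at 0.5 h and 7 in WT cells. In DMSO-treated against untreated WT cells without LPS, 6 of the 11 were higher and 1 lower, with a median of 0.62 (12.5% and 11.1% of all genes).

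Summed levels of the dendritic cell, B cell and megakaryocyte lists also stood apart between the genotypes. Itgax, which encodes the integrin CD11c and is also on the dendritic cell list, was at 9.87, 9.86, 9.72 and 9.89 against 10.47, 11.22 and 11.87 (difference -1.41, adjusted p = 2.64e-07), while 2 of the 5 tested dendritic cell markers were lower and 2 higher (22% and 22.4% of all genes), and the summed level of that list was 9.84 to 10.00 in deficient and 10.54 to 11.90 in WT libraries. Itgax alone made up 91.7% to 92.9% of that sum in deficient and 94.9% to 97.7% in WT libraries, and 7 of the 9 genes had a mean linear level below 10 in both genotypes. Of the monocyte and macrophage state markers 3 of 21 were lower and 5 higher, no larger share than of all genes for the former and close to it for the latter. Ly6c2 was at 4.96, 5.24, 5.10 and 4.69 against 2.85 to 3.25 (1.96, adjusted p = 1.46e-18). These WT levels lay below the filter of 10 on the linear scale, which all 16 deficient libraries of the fit and 9 of the others reached. Cx3cr1 differed by -0.92 (adjusted p = 0.000258) with overlapping libraries, its difference being -0.73 and -1.11 against WT replicates 4 to 6 and 7 to 9. The summed level of the megakaryocyte list, markers of the cells that make platelets, was 11.64 to 11.86 in deficient and 10.98 to 11.47 in WT libraries, and 2 of its 4 tested members were higher and 0 lower, beside the same 22.4% and 22%. Pf4, a platelet chemokine gene that made up 75.9% to 92.4% of the sum, was higher by 0.71 (adjusted p = 0.00115; without LPS 0.67), by 1.01 against WT replicates 4 to 6 and by 0.41 against 7 to 9 (adjusted p = 0.12). The summed level of the B cell list was 6.58 to 7.01 in deficient and 5.73 to 6.48 in WT libraries, and its 1 tested member, Cd79b, a chain of the B cell receptor that made up 81.1% to 89.0% of the sum, was higher by 0.78 (adjusted p = 0.000228; without LPS 0.69), by 1.08 against WT replicates 4 to 6 and by 0.47 against 7 to 9 (adjusted p = 0.0513). Of the B cell list, 5 of 6 genes had a mean linear level below 10 in both genotypes. All mast cell and erythroid markers, the other B cell markers and all but 1 of the T and NK cell markers, fell below the filter, as did 7 of the 9 fibroblast markers. Their part in the differences was not tested.

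Among metabolic genes, part of each list passed the test, where 22% of all genes were lower and 22.4% higher. Of 22 tested cholesterol and LXR genes 9 were higher, 2 lower and 11 not called, with a median of 0.22. Hmgcs1, an early enzyme of the mevalonate pathway, was at 12.28, 12.19, 12.23 and 12.35 against 11.02, 11.41 and 11.64 (difference 0.88, adjusted p = 4.81e-11), and Idi1, a later one, was higher by 0.82 (1.06 against WT replicates 4 to 6 and 0.59 against 7 to 9). In DMSO-treated against untreated WT cells without LPS, 18 of the 22 were higher and 2 lower, with a median of 0.83, where 12.5% of all genes were higher and 11.1% lower in that comparison. Of 21 glycolysis and hypoxia genes 11 were lower and 2 higher, with a median of -0.20, and in the comparison of DMSO-treated with untreated cells 3 were lower and 2 higher. Pkm (pyruvate kinase) and Pfkl (phosphofructokinase) differed by -0.48 and -0.58, beside -0.56 and -0.69 without LPS. Of 12 targets of the antioxidant factor NRF2 8 were lower and 0 higher, with a median of -0.33, and between DMSO-treated and untreated WT cells 6 of the 12 were lower and 0 higher, with a median of -0.23. Gclm and Gclc, the subunits of the enzyme that limits glutathione synthesis, differed by -0.77 and -0.64, and the peroxidase gene Prdx1 by -0.72, at 14.70, 14.75, 14.64 and 14.76 against 15.01 to 15.77 in WT cells.

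Cell cycle genes were higher for 11 and lower for 1 of 27, beside 22.4% and 22% of all genes, with a median of 0.25. In DMSO-treated against untreated WT cells without LPS, 17 of the 27 were higher and 0 lower, with a median of 0.47 (12.5% and 11.1% of all genes). Stress genes were higher for 4 and lower for 6 of 17, with a median of -0.10. The median difference moved with properties of the transcripts: it was -0.05, 0.01 and 0.05 from the shortest to the longest of 3 equal parts of the genes, and 0.09, 0.00 and -0.10 from the lowest to the highest GC content. Transcript sequences were found for 96.7% of the genes tested. What gives rise to these small shifts was not tested.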

How the data were processed

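RNA-seq was measured in 119 libraries, 10 of which enter the comparison. Per the submitters' processing notes, the authors aligned reads with STAR (2.5.1b) to mm10, estimated counts per gene with RSEM (1.2.29) and normalized them with DESeq2 (1.10.1). The deposited values are on a log2 scale, from -2.40 to 19.81 (1 value above 25 was treated as missing). The sources used here do not name the transformation, the depth of each library is unknown, and a transformation that shrinks low levels would reduce their differences. Samples were grouped by the labels. Genes reaching 10 on the linear scale in 4 or more libraries were kept (11884 of 18098), and limma (3.58.1, R 4.3.3) was fitted to 62 libraries of WT, Map3k8[D270A] and Elk1-/-Elk4-/- cells, with 1 mean per genotype and time and Benjamini-Hochberg adjustment. All p values are two-sided. The script was checked on simulated data. Genes were named by their role, by size of change and by adjusted p within each list, and further genes singled out were chosen with their values known. The members and the lists were chosen with earlier results of these data known. Alternatives varied the libraries, filter, scaling, variance model, threshold and control set. Promoters and coordinates are from RefSeq and GRCm38 annotation.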

Additional observations from a re-analysis of the deposited data

Results flagged for a closer look

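Rises with LPS that differed between the genotypes by the interaction test in limma are Egr1 (-3.48), Fosb (-1.35), Fos (-1.17), Ier2 (-0.93), AI597479 (-0.22), Id3 (1.37) and Nuak2 (0.53), with Benjamini-Hochberg adjustment over all genes tested.

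Among 190 groups of libraries examined for the genes named, 13 had a single library far from the others, and chance gives about 1 in 20. In WT cells, replicate 8 was the highest for Egr1 (14.27, next 13.28) for Isg15 (10.03, next 9.69) and for Chil1 (2.05, next 1.90). In Elk1-/-Elk4-/- cells, replicate 2 was the highest for Elk4 (5.69, next 5.54) and Prex2 (3.40, next 3.29). Replicate 4 was the lowest for Lcn2 (6.33, next 6.61), Camp (4.22, next 4.43), Bst2 (12.32, next 12.60) and Ccl4 (13.23, next 13.42). Replicate 3 was the lowest for Nr4a1 (10.19, next 10.51), Itgax (9.72, next 9.86) and Pkm (14.36, next 14.51), and replicate 1 for Adamts1 (6.88, next 7.23).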

How the results depend on the processing

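Of 2085 values of named genes under alternatives, 1988 kept their direction and their side of the threshold, 78 lost and 5 gained a call, and 14 changed sign. The sign changes were of Elk3, whose difference is near 0.00 (quantile normalization -0.0097, WT replicates 7 to 9 -0.024, without WT replicate 4, 5 or 8 -0.0069, -0.0097 and -0.0058, without deficient replicate 1 or 2 -0.0088 and -0.0104, with a range of -0.0104 to 0.022 over libraries left out), of Nr4a1 against WT replicates 4 to 6 (0.063), of Dusp1 (-0.062), Dusp2 (-0.376), Dusp5 (-0.523), Tnfaip3 (-0.111) and Tnf (-0.214) against WT replicates 7 to 9, and of Dusp5 without WT replicate 5 (-0.056, with a range up to 0.288 over libraries left out). With a threshold at 0.693, 133 genes were lower and 251 higher, and at the adjusted p alone 2610 and 2664. For the response to LPS, the adjusted p alone, an alternative chosen after seeing the data, gave 5 smaller and 2 larger rises. WT replicates 4 to 6 alone gave 16 larger rises, and replicates 7 to 9 alone 5 smaller and 0 larger. Also chosen after seeing the data were the alternatives for lists, by which 3 EGR, NR4A and NAB genes were lower against WT replicates 4 to 6 and 7 cytokine genes higher against 7 to 9.

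Leaving out 1 library at a time gave 44 to 55 lower and 76 to 101 higher genes, 3 smaller and 1 larger rises, 12 to 17 higher cytokine genes, 4 to 6 lower EGR, NR4A and NAB genes, 9 to 10 lower macrophage markers, 8 higher neutrophil markers (3 of which passed the filter only through deficient libraries) and 31 to 33 higher interferon-stimulated genes. In the fit to the 10 libraries at 0.5 h alone, Srf, Nr4a1, Fosl1, Fosl2, Junb, Dusp1, Nuak2, Il1b and Tnfaip3 did not pass. With the replicate number as a block, 2 smaller and 0 larger rises were at least 2-fold. The numbers are not known to pair the samples: same-numbered libraries without LPS and at 0.5 h correlated at 0.453 to 0.793 in WT and 0.037 to 0.595 in deficient cells, and 4 of 6 and 3 of 4 correlated best with their own number. The cause of these changes was not tested. Low levels limit Fosl1, Il6, Ifnb1 and the markers below the filter.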
